A study of Homo sapiens with 2 samples.

Results

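The enzymes that turn squalene epoxide into cholesterol were examined in the established human glioblastoma line U87 after exposure to LXR623, a synthetic agonist of the liver X receptors (LXR). They were chosen by their place in the pathway, as 9 genes: LSS, CYP51A1, TM7SF2, MSMO1, NSDHL, HSD17B7, EBP, SC5D and DHCR7. A row of the array table matched 8 of the 9, out of 22458 named genes. HSD17B7 matched no row and was not analysed here. All 8 passed the filter on low values (a mean of at least log2 3.39 over both arrays), which kept 16902 named genes.

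The control culture received 0.1% DMSO, the solvent, and the treated culture 20 µM LXR623, both for 24 h in medium with 1.5% serum. RNA of each went onto 1 Affymetrix whole-transcript array, so there were no replicates, no error and no test, and precision is limited by the number of arrays. The labels name U87 in the title, source and cell line fields, whereas their culture text names HCT116, a colon carcinoma line. On both arrays 7 mesenchymal markers, among them CAV1, CHI3L1 and FN1, were listed between log2 7.04 and 12.46, and 8 colon epithelial markers, among them EPCAM, LGALS4 and CLDN3, between 3.25 and 5.67. These are levels of different probe sets, which also differ in brightness, and the conflict was not resolved from them. The astrocyte marker GFAP was listed at 4.76 in control and 4.68 with LXR623, and SLC1A3, a glutamate transporter of astrocytes, at 7.76 and 6.87 (1.85-fold lower), while S100B and AQP4 lay below the filter.

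Cholesterol synthesis runs from acetyl-CoA through mevalonate and squalene to lanosterol, the first sterol, which is then trimmed of its extra methyl groups and has its double bonds moved and reduced in the endoplasmic reticulum. When sterols in that membrane fall, SCAP escorts the SREBP factors to the Golgi, where they are cut, and the released SREBP-2 switches on most genes of the route together with NF-Y and Sp1. LXRs respond to the opposite state: they bind oxysterols and switch on cholesterol export. Inherited loss of DHCR7, EBP or NSDHL gives disorders of development, because sterol precursors build up and cholesterol runs short.

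The promoters of 5 members are shown because these genes lay at both ends of the differences described below. LSS, MSMO1 and DHCR7 were highest, and EBP and TM7SF2 were slightly lower than control. Each line holds the 250 bases before the RefSeq start site (build GRCh38.p14), read 5′ to 3′ on the gene's own strand. Capitals mark the NF-Y box CCAAT and the Sp1 box GGGCGG, on either strand.
LSS: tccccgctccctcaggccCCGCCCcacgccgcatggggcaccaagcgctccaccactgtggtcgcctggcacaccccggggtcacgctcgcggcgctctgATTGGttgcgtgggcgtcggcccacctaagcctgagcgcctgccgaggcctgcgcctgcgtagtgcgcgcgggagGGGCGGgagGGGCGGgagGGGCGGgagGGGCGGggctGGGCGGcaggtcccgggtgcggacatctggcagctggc
MSMO1: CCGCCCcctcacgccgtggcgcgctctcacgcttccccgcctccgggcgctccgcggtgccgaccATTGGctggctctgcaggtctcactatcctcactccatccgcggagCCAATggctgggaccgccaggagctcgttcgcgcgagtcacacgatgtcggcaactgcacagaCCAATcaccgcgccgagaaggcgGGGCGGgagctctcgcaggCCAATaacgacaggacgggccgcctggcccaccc
DHCR7: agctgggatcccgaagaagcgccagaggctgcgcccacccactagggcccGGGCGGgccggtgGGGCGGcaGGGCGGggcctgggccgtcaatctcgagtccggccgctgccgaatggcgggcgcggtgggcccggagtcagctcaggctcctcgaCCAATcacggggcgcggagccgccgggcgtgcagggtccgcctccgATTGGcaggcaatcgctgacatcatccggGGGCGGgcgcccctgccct
EBP: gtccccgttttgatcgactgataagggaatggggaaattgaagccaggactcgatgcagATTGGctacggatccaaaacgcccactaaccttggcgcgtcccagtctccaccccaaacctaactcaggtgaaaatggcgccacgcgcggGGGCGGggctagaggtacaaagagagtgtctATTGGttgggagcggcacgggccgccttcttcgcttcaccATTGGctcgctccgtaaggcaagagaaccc
TM7SF2: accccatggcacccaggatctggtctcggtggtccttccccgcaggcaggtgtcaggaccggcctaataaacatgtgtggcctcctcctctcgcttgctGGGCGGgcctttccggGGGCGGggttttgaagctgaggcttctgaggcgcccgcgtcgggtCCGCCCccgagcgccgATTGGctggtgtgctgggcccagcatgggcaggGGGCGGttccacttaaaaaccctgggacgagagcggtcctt

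The windows are chr21:46228775-46229024 on the minus strand for LSS, chr4:165327419-165327668 on the plus strand for MSMO1 and chr11:71448394-71448643 on the minus strand for DHCR7. Those of EBP and TM7SF2 are chrX:48521558-48521807 and chr11:65111622-65111871, both on the plus strand. RefSeq lists another start for DHCR7, further upstream, whose window held none of the motifs searched.

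Of the 8 measured enzymes, 6 were higher and 2 lower in the LXR623 array, where 48.8% of all kept genes were higher and 48.3% lower. At least 1.5-fold higher (a log2 difference of 0.585) were DHCR7, MSMO1 and LSS, that is 3 of 8, against 2.38% of all kept genes. No member was at least 1.5-fold lower, against 2.01% of all kept genes. The median difference of the 8 was 0.25 on the log2 scale, and that of all kept genes was 0. A difference here is always the log2 value of the LXR623 array less that of the control array, and describes these 2 arrays.

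**Figure D1:**
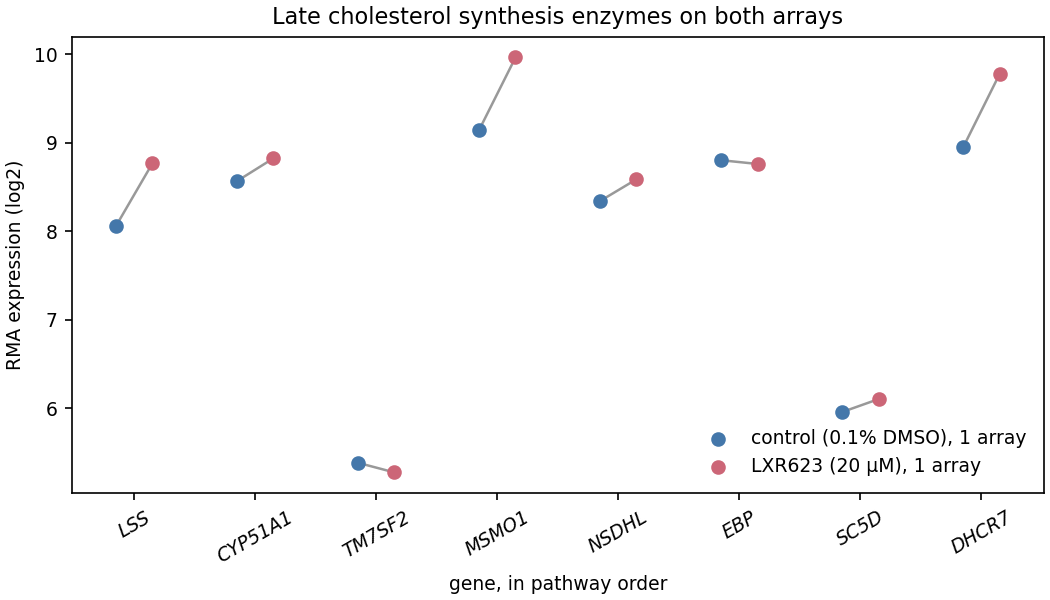
Log2 RMA expression (y axis) of the 8 measured enzymes in pathway order (x axis), with 1 point for the control array and 1 for the LXR623 array. The lines of LSS, MSMO1 and DHCR7 climb by 0.71, 0.82 and 0.83; probe sets differ in brightness, so heights are not compared between genes.

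LSS, the cyclase that folds squalene epoxide into lanosterol and so opens this stretch of the pathway, lies at chr21:46188446-46228774. Its value was log2 8.06 in control and 8.77 with LXR623. The difference of 0.71, or 1.63-fold, was exceeded by 191 of the 16902 kept genes. Among the 1000 kept genes ranked around it by mean level, it lay at percentile 98.7, above their central 95% (-0.48 to 0.56).

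CYP51A1, at chr7:92112153-92134803, is the cytochrome P450 that removes a methyl group from lanosterol by oxidation. It was listed at 8.57 in control and 8.82 with LXR623, 1.19-fold higher. This difference of 0.26 lay inside the central 95% of genes of like level (-0.48 to 0.51). The antisense RNA CYP51A1-AS1 overlaps the annotated span of CYP51A1 over 241 bases. It was listed at 2.58 and 3.37, with a mean below the filter, and whether the probes distinguish strands was not given in the sources used here. Among the other cytochrome P450 genes, 31 of 50 passed the filter, with 14 higher, 15 lower and 2 equal; none was at least 1.5-fold higher and 3 were at least 1.5-fold lower. The median difference of the 31 was 0. The 3 lower genes lay near the filter cut of log2 3.39. CYP21A2 was listed at 4.30 in control and 2.79 with LXR623, CYP4Z1 at 4.65 and 3.61, and CYP4A11 at 4.53 and 3.83. On the higher side, CYP4B1, at 4.12 and 4.71, fell just short of 1.5-fold, with a difference of 0.583. CYP1A2, at 3.97 and 4.53, differed by 0.55. These higher genes also lay near the cut.

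TM7SF2 reduces the ring double bond that CYP51A1 leaves behind, a reaction that the nuclear envelope protein LBR can also perform. TM7SF2, at chr11:65111872-65116230, was listed at 5.38 in control and 5.27 with LXR623, a difference of -0.11. LBR was listed at 6.96 and 6.85, a difference of -0.10. Both reductases thus lay slightly below control, at percentiles 31.6 and 32.2 of all kept genes, within the scatter of single genes. Just 9 bases separate TM7SF2 from VPS51, a neighbour on the same strand, which differed by 0.29.

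The methyl groups that remain are removed in a cycle run by MSMO1, NSDHL and HSD17B7, held together by the membrane protein ERG28. MSMO1, the oxidase that starts the cycle, lies at chr4:165327669-165343164. It was listed at 9.14 in control and 9.96 with LXR623, a difference of 0.82, or 1.76-fold, which 118 kept genes exceeded. NSDHL, the dehydrogenase that removes the oxidised carbon as CO2, lies at chrX:152831063-152869729 and was listed at 8.34 and 8.59. Its difference of 0.24, or 1.19-fold, lay inside the central 95% of genes of like level (-0.47 to 0.56). ERG28 was listed at 9.21 and 9.39, a difference of 0.18. Within the measured part of this cycle, then, the oxidase alone passed 1.5-fold, and all 3 genes were higher with LXR623.

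FAXDC2, a relative of MSMO1 in the same family of membrane oxidases, ran the other way. It was listed at 6.49 in control and 5.42 with LXR623, a difference of -1.08, or 2.11-fold lower, at percentile 0.12 of all kept genes. SC5D belongs to this family too, as do CH25H at -0.08 and FA2H at -0.12; AGMO lay below the filter. Of the 5 family genes kept, 2 were higher and 3 lower, and MSMO1 and FAXDC2 were the extremes.

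**Figure D2:**
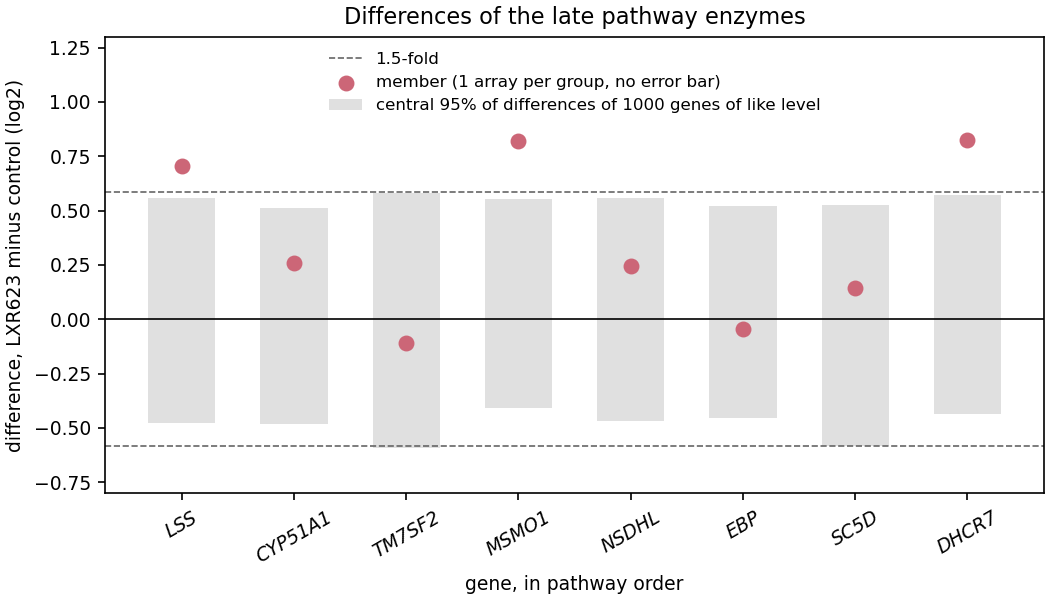
Log2 difference, LXR623 minus control (y axis), of each measured enzyme in pathway order (x axis). Grey bars span the central 95% of differences of the 1000 genes ranked around each enzyme by mean level, and dashed lines mark 1.5-fold. LSS, MSMO1 and DHCR7 lie above their bars and above 1.5-fold, and the other 5 points lie inside their bars, between -0.11 and 0.26.

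EBP, the isomerase that shifts the ring double bond, lies at chrX:48521808-48528716 and was nearly level between the arrays. It was listed at 8.80 in control and 8.76 with LXR623, a difference of -0.04, and 85.3% of kept genes had an absolute difference at least as large. EBPL, its paralogue, was listed at 6.28 and 5.94, a difference of -0.34.

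SC5D, at chr11:121292771-121313410, inserts another double bond into the ring. Its values were 5.96 in control and 6.10 with LXR623, a difference of 0.15, or 1.11-fold, inside the central 95% of genes of like level (-0.58 to 0.52).

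DHCR7 then reduces a ring double bond and, from the immediate precursor, yields cholesterol. It lies at chr11:71427287-71449043 and was listed at 8.95 in control and 9.77 with LXR623. Its difference of 0.83, or 1.77-fold, was the highest of the 8, and 114 kept genes exceeded it. It lay at percentile 99.2 of the genes of like level. DHCR7 belongs to one protein family with TM7SF2 and LBR, and these 3 measured reductases held 1 gene past 1.5-fold and 2 genes slightly below control.

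Ordered by difference, DHCR7 came first, followed by MSMO1, 0.007 below it, and LSS, a further 0.11 below. A gap of 0.45 separated LSS from CYP51A1, the widest between neighbours in the order. NSDHL, SC5D, EBP and TM7SF2 followed, and the whole range was 0.93. With 1 array per group no gap could be set against replicate error, so neither the order of neighbours nor the wide gap was tested. Position in the pathway did not order the differences: the 3 genes past 1.5-fold act at its opening step, in the methyl-removal cycle and at the final reduction. Nor did the chromosome, since the 3 members on chromosome 11 ran from -0.11 to 0.83.

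The steps before lanosterol, from acetyl-CoA to squalene epoxide, gave a similar picture. Of the 11 genes listed, 9 matched a row and 8 passed the filter; 6 of these were higher and 2 lower, with a median of 0.32, and 2 were at least 1.5-fold higher. HMGCS1, which makes the precursor of mevalonate, was listed at 6.91 in control and 7.84 with LXR623. SQLE, the epoxidase that feeds LSS, was listed at 8.66 and 9.41. MVD differed by 0.52, IDI1 by 0.35 and MVK by 0.29, whereas ACAT2 differed by -0.10. In these earlier steps, as among the 8 later enzymes, genes past 1.5-fold stood beside genes close to 0, and none of the 16 genes was at least 1.5-fold lower.

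The late oxidases draw electrons from carriers in the same membrane: POR serves CYP51A1, and cytochrome b5 with its reductases serves MSMO1 and SC5D. Of 8 carrier genes listed, 7 were kept, with 6 higher, 1 lower and none past 1.5-fold, and a median of 0.12. POR was listed at 7.46 in control and 7.64 with LXR623, and CYB5R3 at 10.51 and 10.64. CYB5A was the one lower, at -0.24, and CYB5R2 the highest, at 0.50. The carrier median lay below the 0.25 of the 8 enzymes. The difference of CYB5R2 lay between those of LSS, at 0.71, and CYP51A1, at 0.26, so the 2 lists overlapped.

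Genes of oxysterols, sterol esters and side branches lay on both sides of 0. Of 9 listed, 7 were kept, with 3 higher, 4 lower and none past 1.5-fold, and a median of -0.08. SOAT1, which esterifies cholesterol for storage, was listed at 8.19 and 8.30. CYP46A1, a cholesterol hydroxylase of brain, was listed at 4.70 and 4.36, a difference of -0.34. CYP27A1, a sterol hydroxylase of mitochondria, was listed at 3.84 and 4.11, a difference of 0.27. Both lay near the filter cut of log2 3.39.

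Among regulators of the pathway, SREBF2, which encodes SREBP-2, was listed at 7.36 in control and 7.68 with LXR623, a difference of 0.32. INSIG1, an SREBP target whose protein holds SCAP in the endoplasmic reticulum, was listed at 9.56 and 10.74. SREBF1, which LXR activates directly, differed by 0.91. Of the 10 genes kept in this list, 9 were higher, 2 of them at least 1.5-fold, and TMEM97, an SREBP-2 target, was the one lower, at -0.22. For comparison, the 7 kept LXR genes and targets were all higher, from MYLIP at 0.11 to ABCA1, the cholesterol exporter, at 1.79. NR1H2, which encodes the receptor LXRβ, was listed with them but matched no row. ABCA1, SCD at 1.59 and FASN at 0.92 exceeded the difference of any member.

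**Figure D3:**
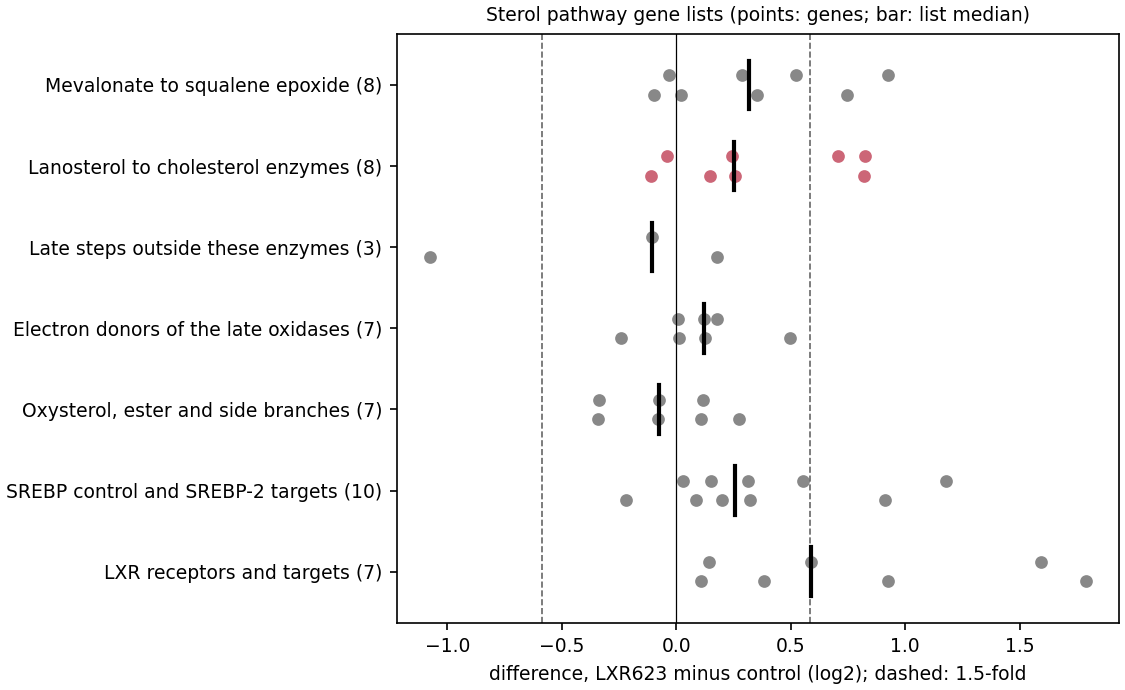
Log2 difference, LXR623 minus control (x axis), of single genes (points) in 7 sterol pathway lists (y axis, number of kept genes in brackets); thick bars are list medians, dashed lines mark 1.5-fold, and the enzymes from lanosterol to cholesterol are red. Their median of 0.25 lies close to that of the earlier steps (0.32) and below that of the LXR list (0.59).

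The promoters were searched for short motifs of factors known to act on sterol or stress genes. RefSeq windows of 300 bases, 250 before and 50 after each start site, were found for all 9 genes, 11 windows in total, because SC5D and DHCR7 have 2 each. The NF-Y box CCAAT stood in a window of 8 of the 9 genes, all but CYP51A1. Counted by window it stood in 9 of 11, against 34.6% of 35116 RefSeq promoter windows and 34.6% of the 22229 windows of genes on the array. The 9 include both SC5D windows, which overlap and share the same box. MSMO1 had 4 such boxes and NSDHL 5, of which 2, on opposite strands, overlap. EBP, with no more than a slight difference between the arrays, had 3. The Sp1 box GGGCGG stood in a window of 8 of the 9 genes, all but NSDHL. By window it stood in 9 of 11, against 45.0% of all windows and 55.5% of those of genes on the array. LSS held 7, of which 5 follow one another between 75 and 38 bases before the start, as its printed sequence shows.

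The sterol regulatory element core TCANNCCAC matched none of the 11 windows and 3.82% of all windows. The ATF4 core TGATGNAA also matched none, against 3.62% of all. The E-box CACGTG matched in LSS and SC5D, against 7.26% of all windows. In SC5D it is the same site in both overlapping windows. Every motif was searched on both strands as exact letters, and a missing match says only that these letters are not in these windows. Members at both ends of the differences held NF-Y and Sp1 boxes, so neither box separated the 3 highest from EBP and TM7SF2.

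**Figure D4:**
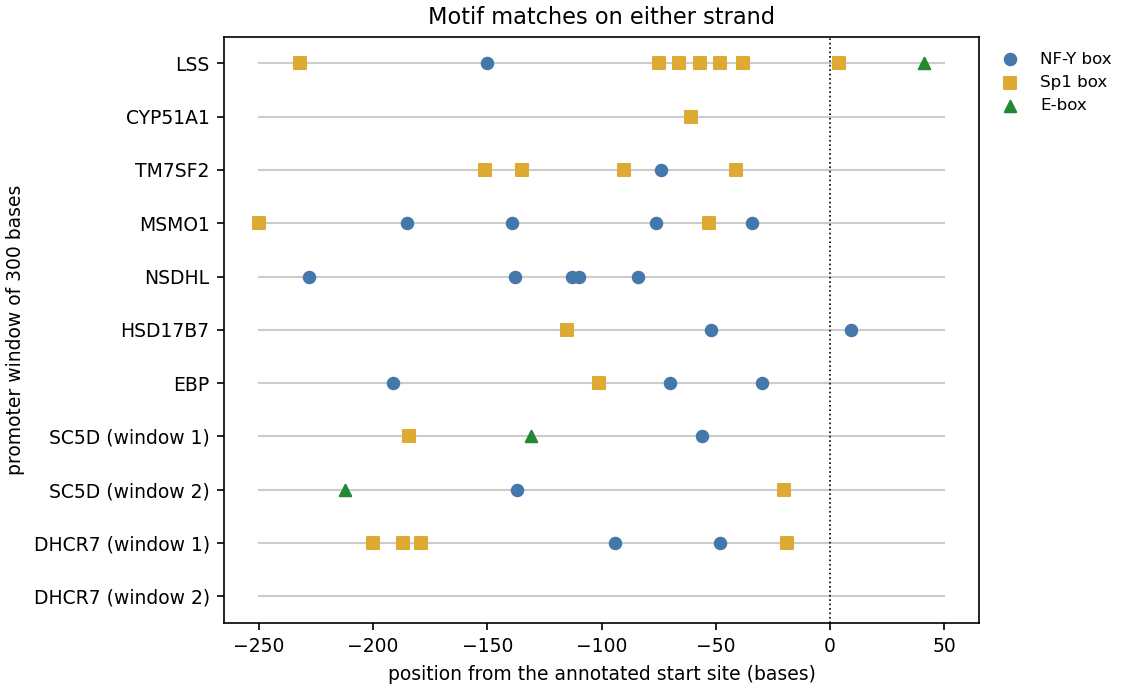
First base of each motif match on either strand (x axis, bases from the annotated start site) in the 11 promoter windows of the 9 genes (y axis). NF-Y boxes appear in all genes but CYP51A1 and Sp1 boxes in all but NSDHL; the upstream window of DHCR7 is empty.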

How the data were processed

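The values deposited by the authors were log2 expression per probe set, 1 column per array. Per the labels, they were made by RMA (background subtraction, quantile normalisation, median polish) with affy 1.36.1 in R 2.15.1; no genome build was stated there. Shifts common to most genes are removed by quantile normalisation, and differences of dim genes come out compressed. Of 23786 probe sets, 22458 had 1 symbol from the platform annotation, none had several and 1328 were unnamed and left out; no gene had more than 1 set. The level filter required a mean of both arrays at or above the 25th percentile of the table. Array medians were 4.88 (control) and 4.92 (LXR623).

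Groups came from the treatment label. The difference of log2 values was computed per gene; with 1 array per group there is no test and no p-value. Members and lists were chosen with earlier results of these data known. Named were all members, the genes acting directly before, beside or after them, and, from each list, up to 5 of the genes with the largest absolute differences, not always all 5. Named outside this rule, after their values were seen, were MYLIP, ACAT2 and TMEM97, each the lowest of its list, S100B, AQP4 and AGMO, as genes below the filter, and CYP51A1-AS1 and VPS51, as neighbours on the chromosome. NR1H2, also outside the rule, was named as a listed gene without a row. Levels were not compared between enzymes; marker levels are given as ranges. Gene spans and promoters came from RefSeq, GRCh38.p14. The method was tested on simulated data. Alternatives were median centring, removal of a lowess trend with level (span 0.3), no filter, a 50th percentile filter, the mean, other member sets and a 2-fold threshold. Python 3.11.15, numpy 2.4.6, pandas 2.3.3, statsmodels 0.14.6 and matplotlib 3.10.9 were used.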

Additional observations from a re-analysis of the deposited data

How the results depend on the processing

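Each member kept its sign under both other scalings, and no member value shifted by more than 0.04. EBP, close to 0, moved from -0.04 to -0.08 with arrays centred on their medians and to -0.02 with the lowess curve removed. The member median lay between 0.18, with LBR, ERG28 and FAXDC2 added, and 0.36, as the mean; without DHCR7 it was 0.24. DHCR7, MSMO1 and LSS passed 1.5-fold in every scaling and filter run. At 2-fold, 0 of the 8 members were higher and 0 lower. Few genes passed that threshold at all: 57 of the 16902 kept genes were higher and 28 lower. Adding the other late genes brought 1 gene, FAXDC2, at least 1.5-fold lower. The 50th percentile filter kept 11365 genes, of which 218 were at least 1.5-fold higher and 218 lower. Without that stricter filter these counts were 402 and 339 of 16902. Among all genes past 1.5-fold, 54.3% were higher as measured and 42.8% with arrays centred. Leaving out HSD17B7 and averaging several sets of a gene could give no value, as HSD17B7 had no row and each gene 1 set. No paired analysis was possible because a single array stood for each condition. Signal over background was not analysed here.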
